A study of Mus musculus with 9 samples.

Results

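Expression of 9 genes of the melanocyte, the pigment cell of skin and hair, was examined in inflamed back skin of mice. The inflammation was a dermatitis evoked by DNCB, a small reactive chemical that sensitises the skin to which it is applied. The genes were chosen by name (Tyr, Tyrp1, Dct, Pmel, Mlana, Oca2, Slc45a2, Mitf and Sox10), and all 9 were found among the 34637 genes of the deposited FPKM table and joined by identifier to the count table. All mice were C57BL/6 males of 6 to 8 weeks. They were shaved on day 0, sensitised with 1% DNCB on day 1, challenged with 0.5% DNCB from day 4 to day 21 and followed to day 28. After day 7 the Model group (4 libraries) received water, and the FJDHF-M group (5 libraries) received the Fangji Dihuang formulation, an extract of several medicinal plants, by mouth. Untreated skin was not analysed here, so the levels are those of inflamed skin with and without the formulation.

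The 5 libraries with codes starting with MR were read as FJDHF-M and the 4 with codes starting with MXL as Model, because the numbers fit the groups and MX abbreviates model in Chinese (moxing). The codes are not explained in the sources used here, and the direction of each difference rests on this reading. Each library was taken as 1 mouse, although codes such as MR3_4 and MXL12 may mark pooled animals. Total counts per library were 74648669 to 79474215, and the 9 genes had between 47 and 9803 counts in each library, above the floor of 3 counts. Markers of skin were present throughout, with Krt5, a keratin of basal keratinocytes, at 238.1 to 1419 FPKM and Col1a1, a fibroblast collagen, at 201.1 to 1574 FPKM. Other tissues also varied, with the highest neutrophil score in MXL12 (5.88), the highest skeletal muscle score in MXL_3 (10.61) and the highest basal keratinocyte score in MXL1 (9.16, against 6.98 in MXL_3 and 7.00 in MXL12), and hair follicle genes were highest in MR3 (7.58). A score here is the mean log2(CPM + 0.5) of a marker list, where CPM is the count relative to the scaled library size.

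Melanocytes make melanin inside organelles called melanosomes and hand these to keratinocytes. In the trunk of the mouse most of them sit in the hair bulb, and they produce pigment while the follicle grows a hair. C57BL/6 mice are black, so the full set of pigment enzymes is used in their growing hair. The transcription factor Sox10 marks the neural crest lineage, from which both melanocytes and the Schwann cells of nerves arise, and with Pax3 it drives Mitf, the regulator of the pigment enzymes. Mitf is also used by mast cells and other cells of skin through other promoters. In bulk skin, fewer melanocytes and less RNA per melanocyte cannot be told apart.

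On the scale of FPKM (fragments corrected for gene length and sequencing depth), Tyrp1 was the highest of the 9 genes, with a mean of 20.6 FPKM over the 9 libraries (range 4.97 to 39.6). Pmel (mean 11.7), Dct (11.5), Mlana (9.35) and Mitf (7.47) followed, then Tyr at 2.60 FPKM. Sox10 (0.933), Oca2 (0.750) and Slc45a2 (0.724) were lowest. Tyrp1 was above Pmel in 9 of 9 libraries, and Mitf was above Tyr in 9 of 9. The neighbours between these steps changed places, since Pmel was above Dct in only 3 of 9 libraries, Sox10 above Oca2 in 5 of 9 and Oca2 above Slc45a2 in 5 of 9.

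**Figure D1:**
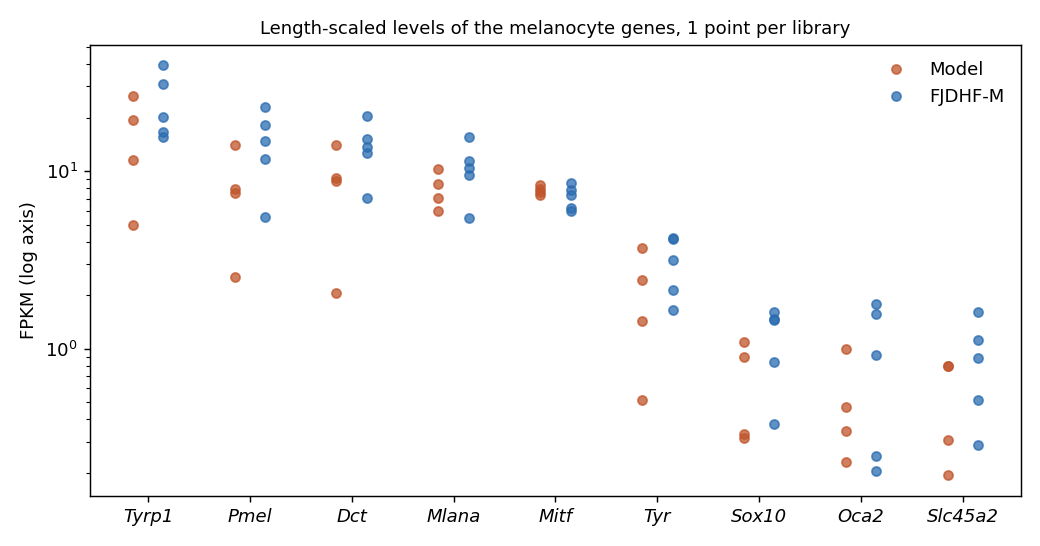
The points are the FPKM values (log axis) of the 9 genes in each library, ordered by mean, with Model and FJDHF-M side by side. The means of Tyrp1, Pmel, Dct, Mlana and Mitf lay between 7.47 and 20.6 FPKM and those of Sox10, Oca2 and Slc45a2 under 1 FPKM, and Mitf had the narrowest range.

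The melanin enzymes are the tyrosinase family. Tyr encodes tyrosinase, the rate-limiting enzyme, Dct the dopachrome tautomerase that acts after it, and Tyrp1 a relative needed for black pigment. Their promoters are shown because all 3 genes are known targets of MITF and each window holds the M-box, a sequence that MITF is known to bind. The windows are 300 bases long, lie mostly before the RefSeq gene start in GRCm38.p6, and are written in the direction of transcription. Capitals mark CATGTG, the core of the M-box, on either strand (CACATG on the other), and its longer form GTCATGTGCT, the longest run around the core that the 3 windows share.
Tyr (chr7:87493463-87493762, minus strand): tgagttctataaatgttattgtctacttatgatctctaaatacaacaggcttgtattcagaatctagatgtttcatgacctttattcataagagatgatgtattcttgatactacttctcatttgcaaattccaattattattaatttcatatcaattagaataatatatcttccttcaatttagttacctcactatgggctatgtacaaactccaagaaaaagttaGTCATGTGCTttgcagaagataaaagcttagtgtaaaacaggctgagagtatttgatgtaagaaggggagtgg
Tyrp1 (chr4:80833963-80834262, plus strand): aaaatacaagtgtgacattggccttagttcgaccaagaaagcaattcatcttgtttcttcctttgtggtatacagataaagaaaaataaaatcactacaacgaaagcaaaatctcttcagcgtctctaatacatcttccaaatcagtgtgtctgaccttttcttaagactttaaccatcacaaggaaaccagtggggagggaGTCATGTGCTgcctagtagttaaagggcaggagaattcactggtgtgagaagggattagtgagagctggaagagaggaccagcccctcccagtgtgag
Dct (chr14:118052197-118052496, minus strand): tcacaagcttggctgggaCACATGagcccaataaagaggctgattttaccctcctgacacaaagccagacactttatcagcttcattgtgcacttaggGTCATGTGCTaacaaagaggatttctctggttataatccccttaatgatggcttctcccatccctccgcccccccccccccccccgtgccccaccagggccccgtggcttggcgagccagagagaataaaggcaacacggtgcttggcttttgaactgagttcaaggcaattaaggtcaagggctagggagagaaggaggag
The longer form starts at position -23 in Tyr, -48 in Tyrp1 and -152 in Dct, counted from the RefSeq gene start. For Tyrp1 and Dct that start differs from the start in the deposited gene coordinates given below. Of 32851 mouse windows of the same length, 0.186% held it on either strand and 14.2% held the core. The longer form was derived from the 3 windows, so its presence in all 3 follows from how it was chosen. Of the 9 genes, 5 had an entry in the promoter table. Oca2 held the core only, on the other strand at position -186, and none of the 3 windows of Mitf held it. The third Mitf window (chr6:97991533-97991832) held TGACGTCA, the cAMP response element, at position -153, which 1.79% of windows hold. No binding was measured in these mice.

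Tyr (ENSMUSG00000004651, chromosome 7, 87424771 to 87493512 in GRCm38) was measured at 16.2 CPM in MR1, 30.4 in MR3, 24.7 in MR3_4, 29.97 in MR4_5 and 12.1 in MR5 of the FJDHF-M group. In the Model group it was at 10.5 CPM in MXL1, 18.4 in MXL12, 28.1 in MXL3_4 and 4.01 in MXL_3. The groups overlapped, with 2 FJDHF-M libraries above every Model library and 2 Model libraries below every FJDHF-M library. The mean was 22.7 ± 8.23 CPM (SD, n = 5) vs. 15.2 ± 10.4 CPM (SD, n = 4). The difference, FJDHF-M minus Model here and in all that follows, was 0.57 on the log2 scale (standard error 0.49) and did not pass the test (edgeR's quasi-likelihood test, unadjusted p = 0.274, adjusted p = 1).

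Tyrp1 (ENSMUSG00000005994, chromosome 4, 80834123 to 80851718) followed nearly the same order of libraries, with only MR1 and MR5 exchanged. Its levels were 47.2, 113.8, 62.6, 88.9 and 48.4 CPM in MR1, MR3, MR3_4, MR4_5 and MR5, and 33.7, 58.0, 80.2 and 15.5 CPM in MXL1, MXL12, MXL3_4 and MXL_3. The highest library exceeded the lowest 7.36-fold, and the group means were 72.2 ± 28.7 CPM (SD, n = 5) and 46.8 ± 28.3 CPM (SD, n = 4). On the log2 scale Tyrp1 differed by 0.62 (standard error 0.44). Dct (ENSMUSG00000022129, chromosome 14, 118012790 to 118052185) had 79.7, 122.5, 97.8, 81.5 and 43.0 CPM in the FJDHF-M libraries, in the same sequence, and 53.3, 56.8, 89.3 and 13.3 CPM in the Model libraries. MXL_3 was therefore lowest for all 3 enzymes and MR3 highest. The mean of Dct was 84.9 ± 29.1 CPM (SD, n = 5) vs. 53.2 ± 31.1 CPM (SD, n = 4). Dct thus differed by 0.67 on the log2 scale (standard error 0.46). Tyrp1 did not pass edgeR's quasi-likelihood test (unadjusted p = 0.19, adjusted p = 1). Dct did not pass it either (unadjusted p = 0.173, adjusted p = 1, edgeR).

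**Figure D2:**
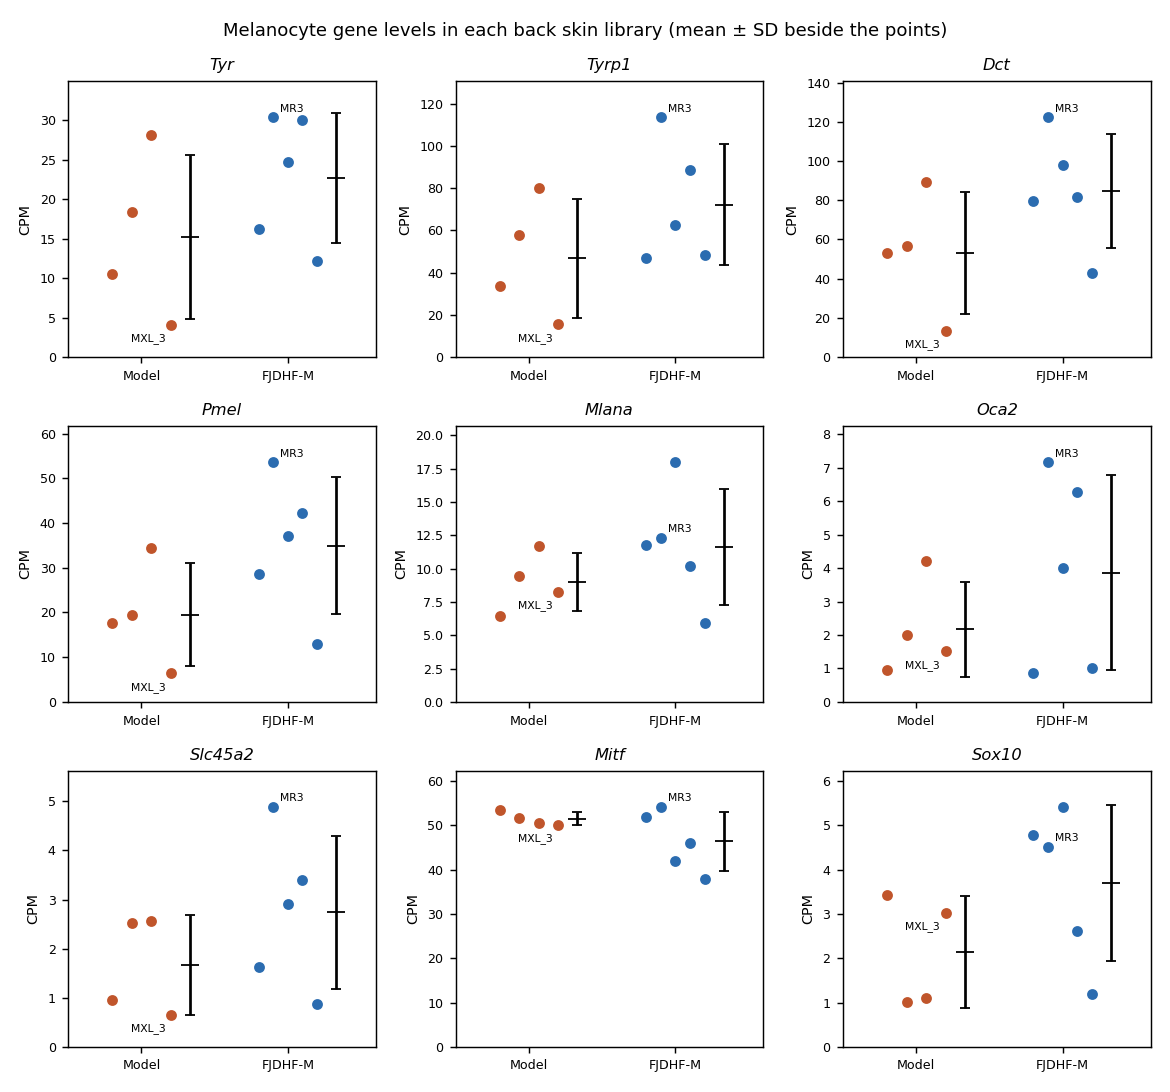
Each panel gives the CPM of 1 gene, with 1 point per library, the groups on the horizontal axis and the mean ± SD beside the points. The groups overlap in all 9 panels, and MXL_3 is the lowest library for 5 of the genes and MR3 the highest for 7.

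Pmel and Mlana encode proteins of the melanosome itself, Pmel the amyloid fibres on which melanin is laid down and Mlana a membrane protein needed for Pmel processing. Pmel (ENSMUSG00000025359, chromosome 10, 128704195 to 128715627) was at 28.7, 53.7, 37.1, 42.3 and 13.1 CPM in MR1, MR3, MR3_4, MR4_5 and MR5, and at 17.7, 19.4, 34.5 and 6.38 CPM in MXL1, MXL12, MXL3_4 and MXL_3. Of the FJDHF-M libraries 3 lay above every Model library, and 1 Model library, MXL_3, lay below every FJDHF-M library. The mean was 35.0 ± 15.2 CPM (SD, n = 5) vs. 19.5 ± 11.5 CPM (SD, n = 4). Its log2 fold change of 0.84 (standard error 0.48) was the largest of the 9 genes and had the smallest p of them (unadjusted p = 0.11, adjusted p = 1, edgeR). Exons of Cdk2 and Dgka on the opposite strand overlap the Pmel gene in the GENCODE M21 annotation, and whether strand was used in counting is not given in the sources used here. In that annotation Pmel ends at 128720238, beyond the deposited end. Which of these overlaps lies within the deposited gene was not examined.

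Mlana (ENSMUSG00000024806, chromosome 19, 29697824 to 29708634) was less variable. It was at 11.8, 12.3, 18.0, 10.2 and 5.91 CPM in the FJDHF-M libraries and at 6.48, 9.47, 11.7 and 8.27 CPM in the Model libraries, in the order above. The highest library exceeded the lowest 3.05-fold, against 7.36-fold to 9.20-fold for the other 6 genes of enzymes, melanosome structure and transport. The lowest library was MR5, and MXL_3, lowest for the enzymes, ranked 7 of 9. Mlana differed by 0.37 on the log2 scale (standard error 0.31, unadjusted p = 0.26, adjusted p = 1, edgeR).

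Oca2 and Slc45a2 encode transporters of the melanosome membrane that set its pH and ions, and both had under 8 CPM in each library. Oca2 (ENSMUSG00000030450, chromosome 7, 56239760 to 56536518) had 65, 574, 290, 499 and 80 counts in MR1, MR3, MR3_4, MR4_5 and MR5, and 75, 150, 327 and 109 counts in MXL1, MXL12, MXL3_4 and MXL_3. The FJDHF-M libraries thus fell into 3 high and 2 low ones. Of the high ones, MR3 and MR4_5 were above every Model library, whereas MR3_4 was below MXL3_4. The 2 low ones were within or below the Model range. Slc45a2 (ENSMUSG00000022243, chromosome 15, 11000721 to 11029233) had 123, 391, 211, 270 and 69 counts in the FJDHF-M libraries and 75, 190, 199 and 47 counts in the Model libraries. Their log2 fold changes were 0.84 (standard error 0.69) for Oca2 and 0.71 (standard error 0.57) for Slc45a2, with unadjusted p values of 0.251 and 0.234 and adjusted p values of 1 (edgeR).

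The regulators behaved differently from the enzymes across libraries. Mitf (ENSMUSG00000035158, chromosome 6, 97807052 to 98018707) was at 51.8, 54.2, 42.0, 46.1 and 37.9 CPM in MR1, MR3, MR3_4, MR4_5 and MR5, and at 53.5, 51.7, 50.6 and 50.2 CPM in MXL1, MXL12, MXL3_4 and MXL_3. All 4 Model libraries lay within 4 CPM of each other, and MXL_3, with the lowest Tyr, Tyrp1 and Dct, had nearly the same Mitf as the others. The highest library exceeded the lowest 1.43-fold. The mean was 46.4 ± 6.73 CPM (SD, n = 5) vs. 51.5 ± 1.47 CPM (SD, n = 4). The difference was -0.15 on the log2 scale (standard error 0.15, unadjusted p = 0.33, adjusted p = 1, edgeR). The counts cover the whole gene, so transcripts from its separate promoters are added together.

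Sox10 (ENSMUSG00000033006, chromosome 15, 79154908 to 79165240) was at 4.78, 4.51, 5.42, 2.61 and 1.19 CPM in the FJDHF-M libraries and at 3.43, 1.02, 1.10 and 3.03 CPM in the Model libraries, in the order above. It was lowest in MXL12, MXL3_4 and MR5, of which MXL3_4 was among the 4 highest libraries for 7 of the 9 genes. Sox10 differed by 0.79 on the log2 scale (standard error 0.53, unadjusted p = 0.164, adjusted p = 1, edgeR). The same 3 libraries had the lowest scores of 10 Schwann cell genes (3.96 in MXL12, 3.96 in MXL3_4 and 4.04 in MR5), against 4.09 to 5.23 in the other 6. None of the 10 Schwann cell genes was at 0 in any library. The score ranged from 4.04 to 5.23 in the FJDHF-M group and from 3.96 to 5.16 in the Model group. Sox10 also went with other scores, with a correlation over the 9 libraries of 0.87 for Schwann cell, 0.79 for macrophage and 0.68 for skeletal muscle genes. The part of these tissues in the Sox10 values was not tested.

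As a set, 8 of the 9 genes had a higher fitted level under FJDHF-M and 1, Mitf, a lower one, against 44.1% of the 20817 genes tested that were higher. The genes vary together, so this count is not 8 separate observations. The median log2 fold change of the 9 genes was 0.675, and that of all genes tested was -0.03. None of the 9 was called at an adjusted p under 0.05 with a 2-fold change, by edgeR, DESeq2 or limma, and none had an unadjusted p under 0.05 in edgeR, against 1.57% of all genes (326). None of the 9 reached a 2-fold change, which 3.98% of all genes did. Over all genes the number called was 0 of 20817 (0.0%) with edgeR, 0 with limma and 2 with DESeq2. The groups overlapped for all 9 genes, as for all but 0.514% of the genes tested. The two-sided exact permutation test over libraries gave p values between 0.159 for Dct and Pmel and 0.476 for Oca2, with an adjusted p of 1 for each over all genes tested, and none of the 9 was under 0.05, against 1.93% of all genes.

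The size of the difference moved with single libraries. Without MXL_3 the median log2 fold change of the 9 genes was 0.35, with 0.26 for Tyr, 0.33 for Tyrp1, 0.35 for Dct and 0.55 for Pmel, whereas Sox10 moved to 1.00. The median was 0.43 without MR3 and 1.015 without MXL3_4. Without MXL3_4 the values were 1.048 for Tyr, 1.015 for Tyrp1, 1.045 for Dct and 1.272 for Pmel, whereas Sox10 moved to 0.57. With limma on log2(FPKM + 1), a scale that understates changes of low genes, the median was 0.365. Of single genes, Oca2 had 0.48 and Slc45a2 0.38 without MR3, Mlana 0.16 without MR3_4 and Oca2 1.385 without MXL3_4. Of the 9 genes, 5 had their lowest level in MXL_3 (13.3% of all genes tested did) and 7 their highest in MR3 (7.67% of all genes tested did). Most of the genes vary together and these libraries are the extremes of the same genes, so the counts are not separate observations.

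**Figure D3:**
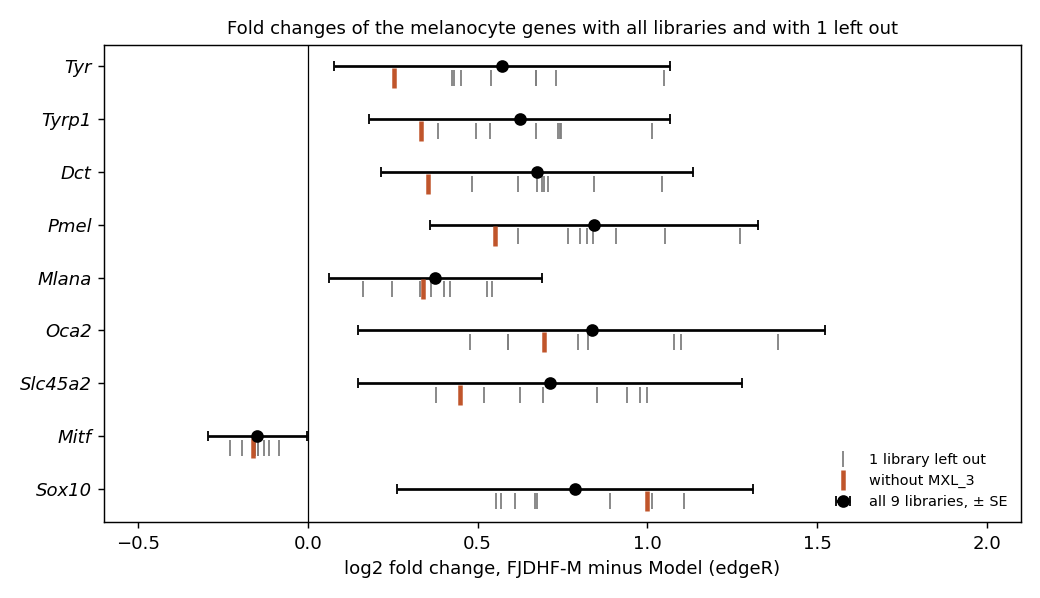
The black points are the edgeR log2 fold changes (FJDHF-M minus Model) with all 9 libraries, the bars their standard errors, and the ticks beneath are the values with 1 library left out, the value without MXL_3 in orange. Mitf is the only gene of the 9 below 0, and the values of Tyr, Tyrp1 and Dct without MXL_3 are 0.26, 0.33 and 0.35.

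The 7 genes of melanin synthesis and melanosome structure (all but Mitf and Sox10) varied together from library to library. Over the 9 libraries the correlation of log2(CPM + 0.5) between 2 of them was between 0.48 (Mlana and Tyrp1) and 0.975 (Tyr and Tyrp1), with a median of 0.83 over 21 pairs. For Sox10 with the same 7 genes it was between -0.05 and 0.47, and for Mitf between -0.02 and 0.19. These correlations are given without a test, since the points share libraries from 2 groups and the mix of tissues in each skin sample. The highest library exceeded the lowest at least 7.36-fold in 6 of the 7 genes, and 10.02% of 15454 genes with a median of at least 1 CPM had a ratio of 7 or more (median ratio 2.22).

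Genes of the growing hair also varied between libraries, with highest-to-lowest ratios from 3.63-fold for Dlx3 to 60.0-fold for Krt83. Of 27 hair follicle genes (keratins of the shaft, genes of the inner root sheath and regulators of the hair matrix), 20 lay above 0 on the log2 scale of FJDHF-M against Model and 7 below. Of all genes tested, 44.1% lay above 0. The median log2 fold change of the 27 genes was 0.16, and none of them was called or had an unadjusted p under 0.05. The highest in CPM were Tchh, Krt71 and Krt25, structural genes of the inner root sheath, with log2 fold changes of -0.05, 0.18 and -0.04. The hair follicle score was 5.20, 7.58, 6.03, 6.59 and 4.59 in MR1, MR3, MR3_4, MR4_5 and MR5, and 6.40, 5.71, 6.81 and 5.21 in MXL1, MXL12, MXL3_4 and MXL_3. Its group means differed by only -0.03 (FJDHF-M minus Model), although 20 of the 27 fitted changes were above 0. The score of the 7 melanosome genes was 3.71, 4.79, 4.38, 4.48 and 3.17 in the FJDHF-M libraries and 3.20, 3.78, 4.32 and 2.44 in the Model libraries. MR3 was highest for both and MR5 lowest for hair and among the lowest 2 for pigment. MXL1 departed from this, with the fourth highest hair follicle score and the third lowest pigment score, and MXL_3 had 2.44 for pigment at a hair follicle score close to that of MR1, whose pigment score was 3.71. Over the 9 libraries Pearson's r between the 2 scores was 0.74 and Spearman's rho 0.77, and r was 0.61 without MR3 and MR5, the libraries farthest from the median hair follicle score. Groups of 4 and 5 libraries are too small for a value within each group.

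**Figure D4:**
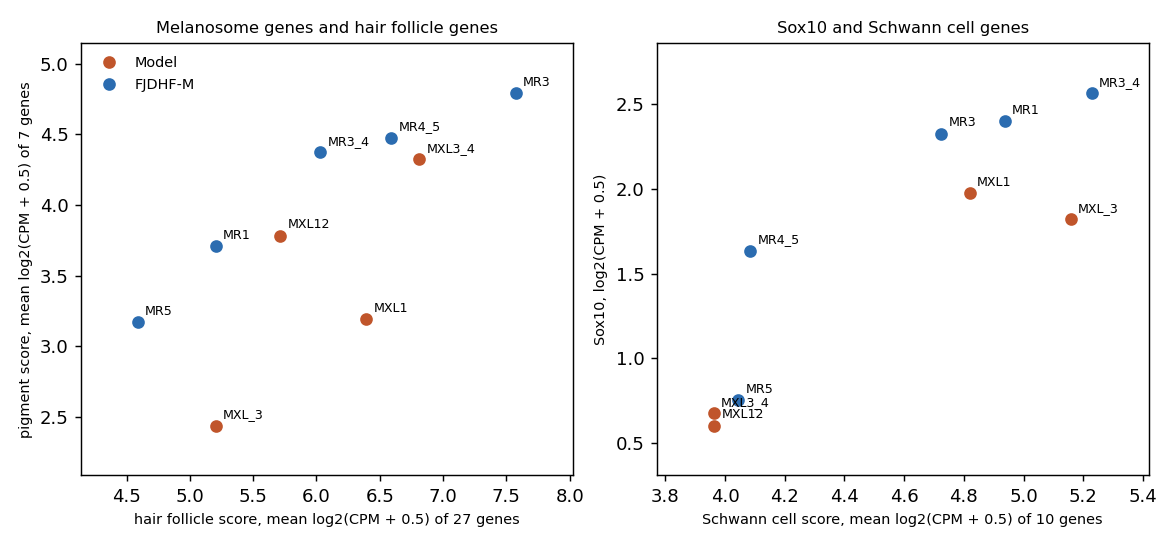
On the left, the mean log2(CPM + 0.5) of the 7 melanosome genes is plotted against that of 27 hair follicle genes, and on the right Sox10 against the mean of 10 Schwann cell genes, with 1 labelled point per library. MXL_3 has the lowest pigment score (2.44) and MR3 the highest (4.79) on the left, and MR5, MXL3_4 and MXL12 are lowest for Sox10 on the right.

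With the hair follicle score as a covariate the median log2 fold change of the 9 genes was 0.65, and none of the 9 was called. In that fit Pmel had 0.90 (unadjusted p = 0.0149, edgeR), Dct 0.78, Tyrp1 0.66 and Tyr 0.65, above their values without the covariate. The next smallest unadjusted p of the 9 genes was 0.060 for Dct (edgeR). Over all genes, 365 of 20817 had an unadjusted p under 0.05 in the fit with this covariate, and 0 were called. This fit was 1 of 18 alternatives. Oca2 had 0.53 and Slc45a2 0.57, below their values without the covariate. Sox10 (0.76), Mlana (0.37) and Mitf (-0.15) stayed close to theirs. The scores of other tissues were also set beside the 9-gene score. These correlations, like that with hair, are given as descriptions over 9 libraries of 2 groups, with no test. With fibroblast genes r was -0.69 and rho -0.67, and r was -0.48 without MR4_5 and MXL_3, the farthest from the median fibroblast score. The correlation with hair above was taken with the score that leaves out Mitf and Sox10. With that score fibroblast genes had r -0.74 and rho -0.73, against 0.74 and 0.77 for hair follicle genes. Without the farthest libraries of each, r was -0.56 for fibroblast and 0.61 for hair follicle genes. The fibroblast score was 10.8 to 11.7 in the FJDHF-M group and 11.4 to 11.9 in the Model group, with all 6 fibroblast genes lower in the FJDHF-M group and 1 of them, Col3a1, at an unadjusted p under 0.05. For genes of mast cells, r with the 9-gene score was -0.59, and -0.73 without MXL12 and MXL3_4. For basal keratinocyte genes it was 0.35, and 0.72 without MXL1 and MR4_5. For skeletal muscle genes it was -0.10, and 0.36 without MXL12 and MXL_3. For Schwann cell, macrophage and neutrophil genes it was between -0.10 and 0.01, and between -0.19 and 0.14 without the farthest libraries of each. No gene of these lists was at 0 in any library, and the part of these tissues in the pigment values was not tested.

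Further genes of pigmentation were read from 4 lists, of which 39 of 41 genes were analysed and 39 tested. FJDHF-M exceeded Model for 18 of these and was below it for 21, with a median log2 fold change of -0.001. None was called, and 1 had an unadjusted p under 0.05 (edgeR). Of all genes tested, 44.1% were higher in FJDHF-M and 1.57% had an unadjusted p under 0.05, so these counts are near the shares over all genes. Of 7 genes of further melanosome cargo, 5 were higher and 2 lower, with a median log2 fold change of 0.16. Slc24a5, an ion exchanger of the melanosome, was at 11.0, 18.2, 18.9, 19.1 and 10.1 CPM in MR1, MR3, MR3_4, MR4_5 and MR5, and at 3.54, 14.9, 14.7 and 4.04 CPM in MXL1, MXL12, MXL3_4 and MXL_3. Of the FJDHF-M libraries 3 were above every Model library, MXL1 and MXL_3 were below every FJDHF-M library, and Slc24a5 had a log2 fold change of 0.74 (standard error 0.47, unadjusted p = 0.148, adjusted p = 1, edgeR). Trpm1, a cation channel gene under the control of MITF, ranged from 3.49 CPM in MR5 to 49.6 CPM in MR3, a log2 fold change of 0.67 (standard error 0.70, unadjusted p = 0.361, edgeR) that was 0.17 without MR3, 0.39 without MXL_3 and 1.21 without MXL3_4. Slc7a11, a cystine transporter, had -0.38 (standard error 0.56, unadjusted p = 0.507, edgeR) and 0.20 without MXL12. Mc1r, the melanocortin receptor that switches melanocytes to black pigment, had 112, 233, 183, 199 and 16 counts in the FJDHF-M libraries and 89, 66, 78 and 3 counts in the Model libraries. For Mc1r 4 FJDHF-M libraries lay above every Model library, MXL_3 was at the floor of 3 counts, and the log2 difference of 1.33 (standard error 0.84, unadjusted p = 0.142, edgeR) became 0.94 without MXL_3.

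Of 19 genes of melanosome biogenesis, which also serve lysosome-related organelles of other cells, 8 were higher and 11 lower, with a median log2 fold change of -0.001. Rab38, a small GTPase that carries tyrosinase family enzymes to the melanosome, was the 1 gene of the 39 with an unadjusted p under 0.05 (edgeR). Of all genes tested, 1.57% had one. It was at 33.4, 23.3, 31.6, 33.8 and 36.5 CPM in MR1, MR3, MR3_4, MR4_5 and MR5, and at 26.6, 21.4, 23.0 and 10.1 CPM in MXL1, MXL12, MXL3_4 and MXL_3, so that 4 of the 5 FJDHF-M libraries lay above every Model library. Rab38 differed by 0.64 on the log2 scale (standard error 0.27, unadjusted p = 0.0381, adjusted p = 1, edgeR) and by 0.42 without MXL_3 (unadjusted p = 0.0564). Its order of libraries differed from that of the enzymes, with MR5, low for the enzymes, highest. Hps6 and Bloc1s4, subunits of the complexes that sort melanosome proteins, had log2 fold changes of -0.38 and 0.25. Their standard errors were 0.62 and 0.28, with unadjusted p values of 0.555 and 0.388 (edgeR). Without MXL1, its highest library, Hps6 had 0.41.

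The 3 genes that carry melanosomes along actin did not pass the test, with 0.29 for Mlph, 0.07 for Myo5a and -0.10 for Rab27a on the log2 scale. Of 10 genes of signals and regulators, 3 were higher and 7 lower. Pax3, which acts with Sox10 on Mitf, had a log2 fold change of 0.57 (standard error 0.34, unadjusted p = 0.126), and Foxd3, a repressor of Mitf in the neural crest, had -1.07 (standard error 0.50, unadjusted p = 0.0589) with at most 16 counts in any FJDHF-M library against 14 to 44 in Model. The growth factor Kitl and its receptor Kit, which is shared with mast cells, had -0.01 and -0.18. Ednrb, the endothelin receptor of melanocyte precursors, had -0.13. The count of 3 higher genes in this list consists of Mc1r, Pax3 and Tfap2a (0.36).

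**Figure D5:**
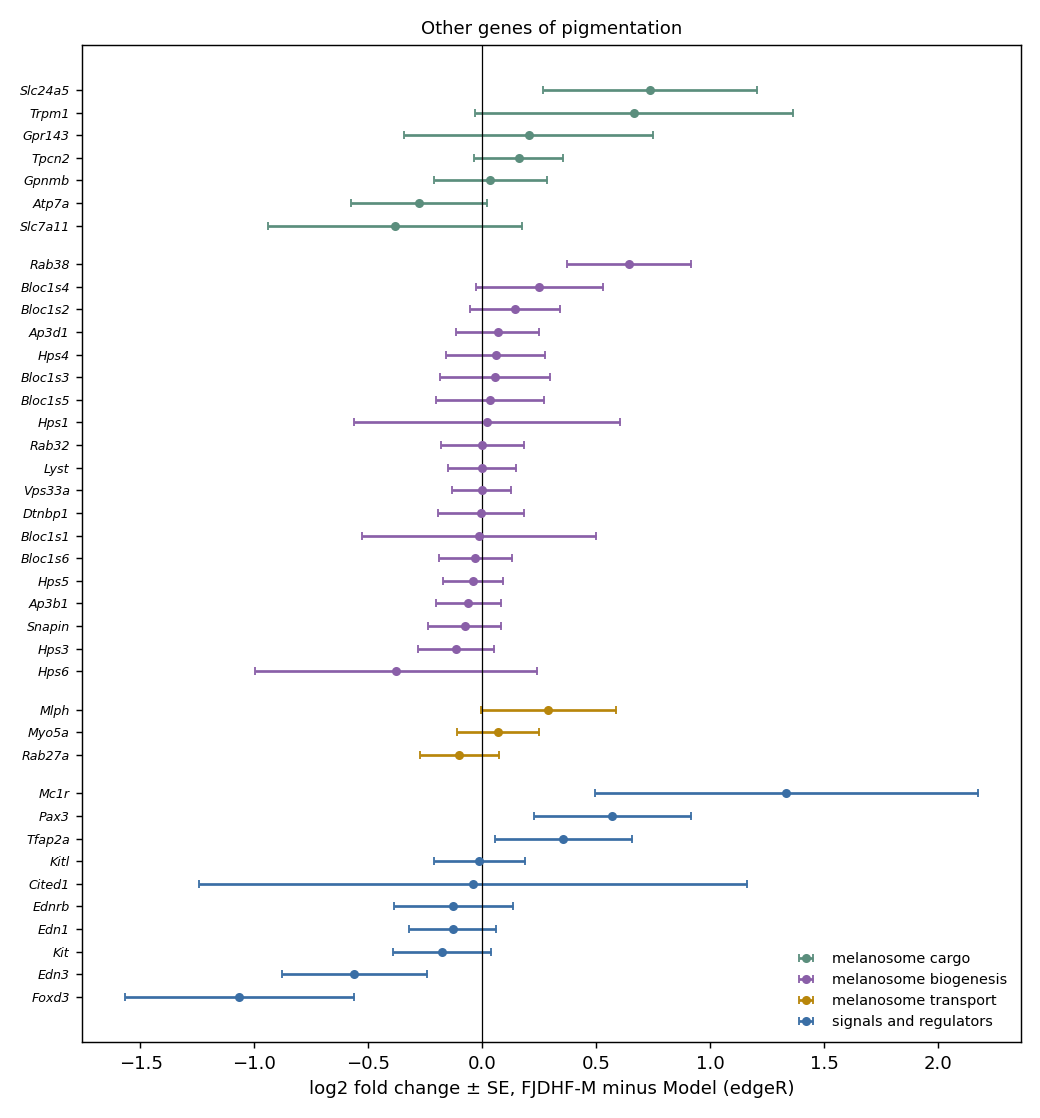
The points are the edgeR log2 fold changes (FJDHF-M minus Model) of 39 further pigmentation genes, the bars their standard errors, and the colours the 4 lists. The 19 genes of melanosome biogenesis lie between -0.38 and 0.64, and Rab38, Slc24a5, Trpm1 and Mc1r are above 0.6.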

How the data were processed

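The authors made strand-specific paired-end libraries of polyadenylated RNA. Per the labels, HISAT, StringTie and DESeq2 were used and the build was mm10, with no versions, and the counting program and annotation release are not given in the sources used here. The authors deposited raw read counts per gene for 55401 genes and, for 34637 genes, FPKM values. A further 9 per-library columns of the FPKM table were not used. No 2 libraries of the 36 pairs matched within counting error (chi-square per degree of freedom of at least 100.1).

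The count table was fitted by edgeR 4.0.16 under R 4.3.3, with filterByExpr, TMM scaling, the quasi-likelihood test and no covariate. Adjustment was by Benjamini-Hochberg over all 20817 genes tested, and a gene was called where its adjusted p was under 0.05 and the change 2-fold or more. CPM use TMM-scaled library sizes. Exact permutation tests used log2(CPM + 0.5). Standard errors are the log2 fold change divided by the root of the F statistic. The steps were tested on simulated data. P values measure the spread between libraries, which may be technical, and the floor of 3 counts covers counting error only.

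The genes and lists were chosen with earlier results of these data known. Named were the 9 genes, the up to 3 largest changes and any unadjusted p under 0.05 of each pigment list, the hair follicle genes highest in CPM, the 10 genes most like the 9-gene score, and up to 2 genes of highest FPKM of each marker list. Kitl, Kit, Ednrb, Tfap2a, Krt32, Lef1, Dlx3 and Krt83 were named after their values were seen. Asip, Pomc and Krt85 were not analysed here. Alternatives used DESeq2 1.42.0, limma 3.58.1, other filters, covariates, a replicate block and fewer libraries. Promoters are from RefSeq. Figures were drawn with matplotlib 3.10.9.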

Additional observations from a re-analysis of the deposited data

How the results depend on the processing

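No gene of the 9 was called under any of the 18 alternatives, and the log2 fold change of each kept its sign in all 18. The median log2 fold change of the 9 genes was 0.353 to 1.015 with single libraries left out, lowest without MXL_3, 0.365 with limma on FPKM, 0.67 with DESeq2's size factors, 0.68 without a filter on low counts, 0.71 with at least 10 counts in every library and 0.82 with the skeletal muscle score as covariate. DESeq2's Wald test called 2 genes in all, with 460 at an unadjusted p under 0.05. Without a filter on low counts 905 of 34637 genes had an unadjusted p under 0.05 and without MXL1 734 of 21292, against 326 in the fit reported. Leaving out single libraries gave 0 to 0 genes called. The replicate numbers of the labels are not in the columns, but 3 numbers in the library codes occur in both groups. With a replicate block on these numbers, which keeps 6 libraries, the median was 1.07, and in the same 6 libraries without the block, an alternative chosen after seeing the data, it was 0.85. The libraries with the same number did not deviate together in all pairs (correlations of 0.23, 0.12 and -0.22), so the numbers were not read as a pairing. The correlation of the 9-gene score with the macrophage score was 0.01, and -0.11 without Mitf and Sox10, with the cause not tested. Among the named genes, depth limits Mc1r and Foxd3, with 3 and 8 counts in their lowest libraries, and of the 9 genes Slc45a2, Oca2 and Sox10, with 47, 65 and 77. Gm47991, named below, was also low, with a median of 0.26 CPM over the 9 libraries.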

Other observations

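The 10 genes outside the 9 whose log2(CPM + 0.5) was most like the mean of the 9 over the 9 libraries were Snrpd2 (r = 0.94), Mc1r (0.93), Trpm1 (0.92), Abcb10 (0.92), Slc7a5 (0.91), Txnl4b (0.91), Nrd1 (0.91), Mob3b (0.91), Gm47991 (0.90) and Ngdn (0.90). They were picked as the highest of all genes tested, so no test is given. Mc1r and Trpm1 are pigment cell genes. Among the listed genes, Krt32, a keratin of the hair cuticle, ranked 12 (r = 0.90) and Lef1, a regulator of the hair matrix, ranked 57 (r = 0.83). Slc24a5 ranked 58 (r = 0.83).

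In 38 comparisons of an extreme library with its own group, over the levels of the 9 genes, 9 scores and the total counts in each group, none passed Dixon's critical value, and 1.9 would be expected to by chance.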
